A study of Mus musculus with 26 samples.

Results

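The 35 genes described here belong to the mouse germline: parts of the machinery of meiotic prophase, germ cell genes whose promoters are kept methylated in somatic cells, and testis isoforms of housekeeping genes. They were taken by symbol from a given list, and all 35 were found among the 24450 gene features counted. In meiotic prophase homologous chromosomes are broken, paired and recombined while the synaptonemal complex holds them side by side, and in female mammals this is completed before birth, after which the oocyte arrests and grows. Many of these genes have CpG-rich promoters that DNA methyltransferases and repressor complexes containing E2F6, MGA and MAX shut off outside the germline. TET3 is a dioxygenase that oxidises 5-methylcytosine, and DNMT3A is the methyltransferase that lays down most DNA methylation in the growing oocyte.

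RNA of germinal vesicle (GV) oocytes, fully grown and not yet matured, was sequenced as 150-base paired-end cDNA from biological replicates that each pooled 10 oocytes, so p-values measure the spread between pools. In the 6 wild-type (WT) libraries the low-complexity domain (LCD) encoded by Tet3 was flanked by loxP sites (Tet3 LCD f/f), without Cre. All other groups carried Zp3-Cre, a recombinase driven by the oocyte-specific Zp3 promoter: 7 LCD KO libraries with the same floxed allele, 5 HD mutant libraries with an allele labelled Tet3 LCD HD Mut (HD is not defined in the sources used here), 2 Dnmt3a KO libraries with floxed Dnmt3a, 2 double knockout (DKO) libraries with floxed Dnmt3a and floxed Tet3 LCD, and 2 libraries labelled Tet3 KO with floxed Tet3. No WT group with Zp3-Cre alone was analysed here, so the transgene and the floxed alleles cannot be told apart. Batch 1 held WT 1 to 3 and LCD KO 1 to 3, batch 2 held HD mutant 1 to 3 with LCD KO 4, LCD KO 5 and WT 4, and batch 3 held WT 5 and 6 with LCD KO 6 and 7, besides every library of the Dnmt3a KO, DKO and labelled Tet3 KO groups. HD mutant 4 and 5 have no batch in the labels, so they are described but were in no test.

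Total counts ran from 1838824 to 7833087 per library. Oocyte markers summed to between 19025 and 61331 CPM (counts per 1000000 of the normalised library total) in every library, while the 11 granulosa or cumulus markers summed to at most 89.7 CPM outside LCD KO 2, where they reached 324 CPM, of which Inha gave 292 CPM. Tet3 was measured at 157 to 426 CPM in WT and at 262 and 357 CPM in the libraries labelled Tet3 KO, a log2 difference of 0.60 ± 0.33 (standard error, adjusted p = 0.65). In those same libraries Dnmt3a stood at 142 and 104 CPM against 236 to 619 CPM in WT, a log2 change of -1.48 ± 0.20 (adjusted p = 4.1e-05). The Tet3 count thus goes against the label, as far as a gene-level count can show a deletion whose exons are not given in the sources used here, and they are called the libraries labelled Tet3 KO throughout. The 2 columns labelled as lacking Tet1, Tet2 and Tet3 held the same values as these 2 libraries in all features and were counted once.

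Promoter sequence was described first, because several of these genes moved in the same comparisons. Windows from 250 bases before to 50 bases after the annotated start were taken from RefSeq (GRCm38.p6) and matched 30 of the 35 genes, while Tex11, Tex15, Spo11, Majin and Meiob had no entry. The E-box CACGTG, a palindrome read by MAX partners, was present in 8 of the 30 genes (26.7%) against 8.09% of the 27025 genes of the table. GCGGGAA, an E2F-like motif searched on both strands, was present in 12 (40%) against 5.29%, and both motifs in 6 (20%) against 0.611%. The median CpG count was 16 per window against 8 over all genes. These are descriptions of letters in a window, with no test, and nothing follows from them about binding. The 6 windows shown are those of Sycp3, Stag3 and Hormad1, which hold both motifs, of the near-identical tubulin genes Tuba3b and Tuba3a, which hold the E2F-like motif alone, and of Pdha2, which holds neither and has 4 CpG. Capitals mark the E-box and the E2F-like motif, the latter also as its reverse complement (TTCCCGC on the printed strand), and each sequence runs 5′ to 3′ on the strand of its gene.
Sycp3: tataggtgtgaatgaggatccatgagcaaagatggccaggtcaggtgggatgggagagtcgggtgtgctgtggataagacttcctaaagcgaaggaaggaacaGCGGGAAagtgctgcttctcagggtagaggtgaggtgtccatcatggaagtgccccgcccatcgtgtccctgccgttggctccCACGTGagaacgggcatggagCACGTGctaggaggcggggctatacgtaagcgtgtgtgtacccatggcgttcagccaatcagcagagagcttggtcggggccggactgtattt
Stag3: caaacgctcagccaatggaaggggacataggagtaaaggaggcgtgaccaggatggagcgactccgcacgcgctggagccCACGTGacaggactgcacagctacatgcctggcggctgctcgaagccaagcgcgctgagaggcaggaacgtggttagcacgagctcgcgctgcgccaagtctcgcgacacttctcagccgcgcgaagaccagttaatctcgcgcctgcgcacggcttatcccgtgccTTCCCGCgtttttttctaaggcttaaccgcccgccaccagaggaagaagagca
Hormad1: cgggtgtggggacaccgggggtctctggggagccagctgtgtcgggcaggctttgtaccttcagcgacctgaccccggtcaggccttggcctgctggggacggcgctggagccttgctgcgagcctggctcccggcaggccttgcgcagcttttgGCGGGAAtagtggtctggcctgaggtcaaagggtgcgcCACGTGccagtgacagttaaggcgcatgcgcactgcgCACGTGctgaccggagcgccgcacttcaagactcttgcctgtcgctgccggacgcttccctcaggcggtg
Tuba3b: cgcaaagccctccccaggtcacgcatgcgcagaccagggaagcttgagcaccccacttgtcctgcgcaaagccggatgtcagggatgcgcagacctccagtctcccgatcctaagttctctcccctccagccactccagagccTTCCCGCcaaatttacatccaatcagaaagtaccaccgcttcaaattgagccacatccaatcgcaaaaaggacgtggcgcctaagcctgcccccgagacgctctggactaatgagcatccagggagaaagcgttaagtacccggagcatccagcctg
Tuba3a: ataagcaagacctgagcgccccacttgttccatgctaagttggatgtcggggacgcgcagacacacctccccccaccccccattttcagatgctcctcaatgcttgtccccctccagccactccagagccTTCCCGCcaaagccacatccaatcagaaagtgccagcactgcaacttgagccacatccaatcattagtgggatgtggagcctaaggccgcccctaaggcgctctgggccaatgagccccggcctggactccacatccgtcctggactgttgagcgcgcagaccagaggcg
Pdha2: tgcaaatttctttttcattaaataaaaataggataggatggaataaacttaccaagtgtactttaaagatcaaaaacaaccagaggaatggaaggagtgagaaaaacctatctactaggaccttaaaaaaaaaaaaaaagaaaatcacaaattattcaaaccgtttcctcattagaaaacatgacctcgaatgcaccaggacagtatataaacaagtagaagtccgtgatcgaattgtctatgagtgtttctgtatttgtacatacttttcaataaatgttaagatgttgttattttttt

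The Sycp3 window lies at chr10:88459337-88459636 (plus strand), the Stag3 window at chr5:138280259-138280558 (plus strand) and the Hormad1 window at chr3:95559427-95559726 (plus strand). Tuba3b lies at chr6:145615713-145616012 (plus strand), Tuba3a at chr6:125286032-125286331 (minus strand) and Pdha2 at chr3:141212306-141212605 (minus strand). Sycp3 and Hormad1 each hold CACGTG at 2 places within the window. Among the 9 genes with a window that were called changed in at least 1 comparison below, 4 held CACGTG, 4 held GCGGGAA and 3 held both. Among the 21 not called, the counts were 4, 8 and 3. These 21 include genes that were not tested (Mei1, Msh5, Rec8, Stra8, Syce3, Taf7l and Tex101), so they are not a set of unchanged genes.

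Of the 35 genes, Spo11, the nuclease that makes meiotic double-strand breaks, had 0 counts in all 24 distinct libraries, which allows up to 3 counts in each (0.333 to 1.72 CPM, counting error only). A further 5 genes had a few counts and a mean below 0.5 CPM in every group: Syce3, a central element protein of the synaptonemal complex, Rec8, the meiotic kleisin of cohesin, Stra8, the retinoic acid target that starts meiosis, and the testis genes Tex101 and Taf7l. The other 29 genes were above that level in at least 1 group. The filter on low counts kept 27 of the 35 for testing and left out 8, among them Mei1 and Msh5, which reached group means of 1.01 and 2.04 CPM at most. So the tests below speak for 27 of the 35 genes.

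Levels per kilobase of exon were compared in the WT libraries. Tuba3a, a testis alpha-tubulin gene, was highest at 942 ± 309 CPM per kb (SD, n = 6), followed by Syce2, a central element protein, at 553 ± 221 CPM per kb. Their ranges overlapped each other and none of the rest. Slc25a31, a mitochondrial ADP/ATP carrier of germ cells, stood at 64.7 ± 14.9 CPM per kb, Tex19.1, a germ cell protein that restrains retrotransposons, at 50.2 ± 7.59, Tex12, another central element protein, at 46.1 ± 13.3, and Tuba3b at 45.5 ± 12.7, and neighbours in this run did not differ beyond their spread. Sycp3, the axial element protein, stood at 19.5 ± 7.14 CPM per kb, and Sycp1, the transverse filament that zips the axes together, at 5.42 ± 3.79 CPM per kb. For Sycp3 all exon bases were used, of which 52.2% are shared with Chpt1 on the other strand. The strand setting is not given, so how many of these bases could be counted is unknown. Stag3, the meiotic cohesin subunit, and Pdha2, the testis form of a pyruvate dehydrogenase subunit, were under 1 CPM per kb at 0.690 ± 0.206 and 0.723 ± 0.352.

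**Figure D1:**
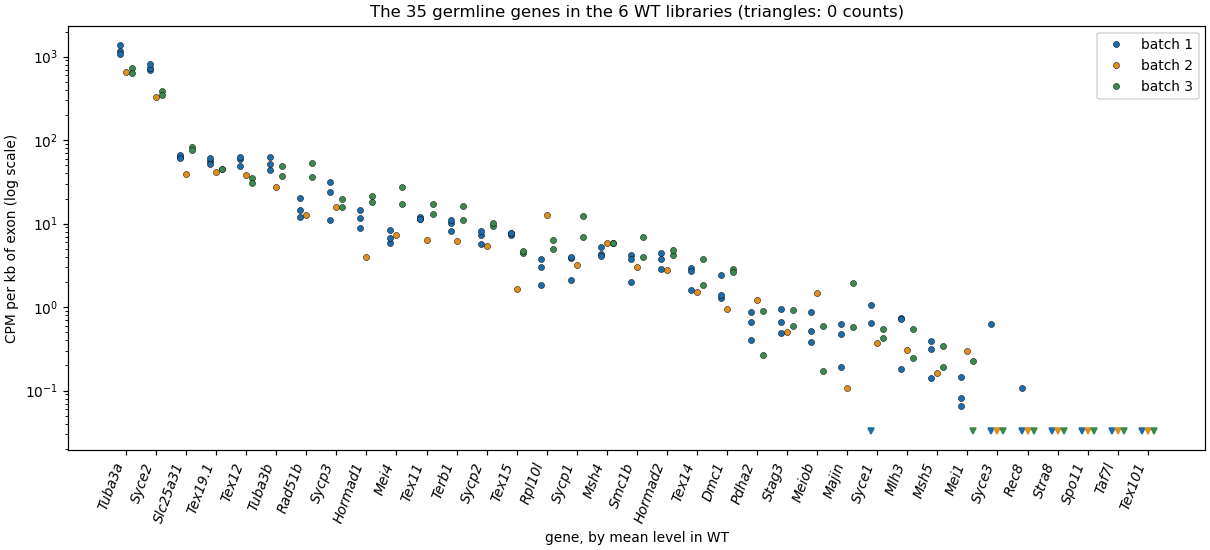
Level of each of the 35 genes in the 6 WT libraries, as CPM per kilobase of exon on a logarithmic axis, ordered by the mean, with 1 point per library coloured by batch and triangles for 0 counts. Tuba3a and Syce2 stand apart at the top, and Spo11, Tex101, Stra8 and Taf7l show triangles only.

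In the comparisons below a gene is called changed when its Benjamini-Hochberg adjusted p from edgeR's quasi-likelihood test, with terms for group and batch, was below 0.05 over all 11794 genes tested. Fold changes are log2 values ± standard error, adjusted for batch. All comparisons with WT share the same WT libraries, so they are given side by side. In bulk pools, fewer transcripts per oocyte and fewer oocytes that carry them cannot be told apart. Of the 27 tested genes, 12 were called in at least 1 of 8 comparisons and 15 in none.

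**Figure D2:**
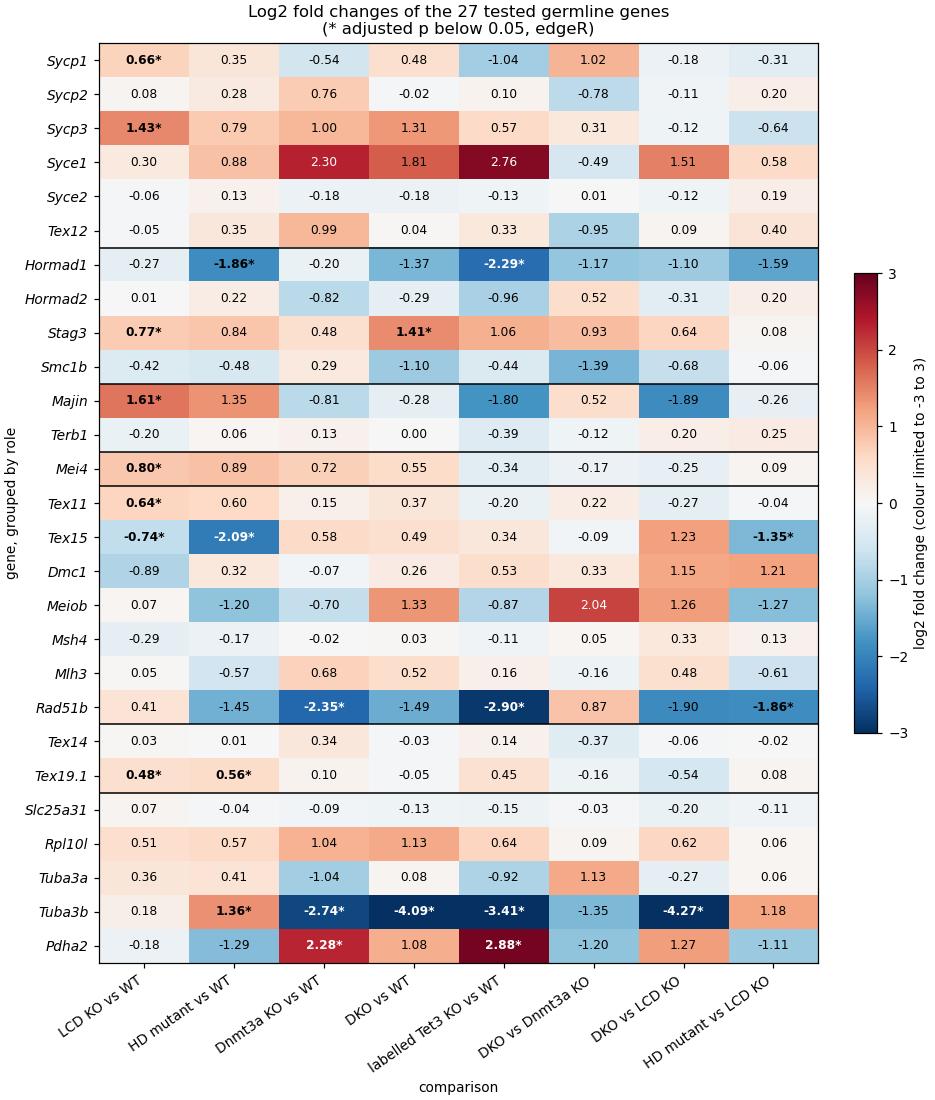
Log2 fold changes of the 27 tested genes (rows, grouped by role with black lines) in 8 comparisons (columns), with asterisks and bold type where the adjusted p was below 0.05 and colours limited to the range from -3 to 3. The LCD KO column holds 8 asterisks, more than any other, and Tuba3b carries the lowest values, -4.27 in DKO against LCD KO and -4.09 in DKO against WT.

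Loss of the Tet3 LCD was the comparison with the most libraries. Against WT, 7 of the 27 genes were higher in LCD KO (Sycp1, Sycp3, Stag3, Majin, Mei4, Tex11 and Tex19.1), 1 was lower (Tex15) and 19 were not called. The 8 called genes are 29.6% of those tested, beside 18.3% of all genes tested (2162 of 11794, with 8.89% higher and 9.44% lower). The median log2 change was 0.07 over the 27 genes and -0.02 over all genes. At an unadjusted p below 0.05 there were 10 of the 27 genes, beside 3753 of all 11794. Leaving out WT 1 or WT 2 left 5 called.

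Sycp3 rose most firmly. In CPM the lowest, median and highest of the 6 WT libraries were 13.8, 22.5 and 39.4, and of the 7 LCD KO libraries 31.2, 65.5 and 149.5. The highest value belonged to LCD KO 2, and LCD KO exceeded WT in every batch, although the pooled ranges overlapped, with WT 3 above LCD KO 4 and 5: batch 1 had a mean of 98.5 CPM in LCD KO and 27.8 in WT, batch 2 had 34.8 and 20.2, and batch 3 had 55.1 and 22.3. The log2 change was 1.43 ± 0.24 (adjusted p = 0.00033), and it remained between 1.21 and 1.62 when any 1 library was left out. In batch 2 alone it was 0.81, from 1 WT library, too few to judge a call. In the GENCODE M21 annotation 660 of 1264 exon bases of Sycp3 are shared with Chpt1 on the other strand, and no strand setting was given. Chpt1 had 0 to 10 counts per library, and the part of the overlap in the Sycp3 counts was not tested.

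Of the other synaptonemal complex genes tested, only Sycp1 was called. It had 7.59, 13.9 and 44.2 CPM as the lowest, median and highest in WT and 19.13, 25.4 and 40.3 CPM in LCD KO. The ranges overlapped, since WT 5 was the highest of all 13 libraries. The log2 change was 0.66 ± 0.22 (adjusted p = 0.034), and this call was lost when WT 1, 2, 3, 4 or 6 or LCD KO 1, 2 or 5 was left out, with log2 values between 0.54 and 0.67 and adjusted p between 0.052 and 0.102. Syce2, with WT at 1089 ± 435 CPM (n = 6, SD) and LCD KO at 1023 ± 552 CPM (n = 7), Sycp2, an axial element protein, and Tex12 were not called in any of the 8 comparisons. Their log2 changes between LCD KO and WT were -0.06 ± 0.11, 0.08 ± 0.18 and -0.05 ± 0.18.

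Among the genes of the chromosome axis, Stag3 rose in LCD KO. The lowest, median and highest values were 2.82, 3.62 and 5.46 CPM in WT and 5.04, 6.96 and 7.55 CPM in LCD KO. Only LCD KO 6 lay within the WT range, below WT 3 and WT 6. Its log2 change was 0.77 ± 0.24 (adjusted p = 0.027), lost without WT 1, WT 2 or WT 4 (0.75, 0.68 and 0.58, with adjusted p of 0.053, 0.074 and 0.14). Hormad1, which coats unsynapsed axes, Hormad2, its paralogue, and Smc1b, the meiotic form of a cohesin core subunit, were not called, with log2 values of -0.27 ± 0.29, 0.01 ± 0.18 and -0.42 ± 0.23. For Hormad1 the direction differed by batch. Its means in LCD KO and WT were 9.23 and 20.3 CPM in batch 1, 13.2 and 6.98 in batch 2, and 35.9 and 34.3 in batch 3.

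Majin, which anchors telomeres to the nuclear envelope in prophase, was low throughout, with 0.179 to 3.21 CPM in WT and 0.736 to 7.14 CPM in LCD KO, and the groups overlapped. Its log2 change was 1.61 ± 0.45 (adjusted p = 0.013), and without WT 4, the lowest library, it was 1.33 (adjusted p = 0.057). Terb1, its partner in the telomere complex, was not called (-0.20 ± 0.15). Mei4, which is needed for meiotic break formation, had 24.2, 32.0 and 112 CPM as the lowest, median and highest in WT and 41.1, 75.0 and 138 CPM in LCD KO, again overlapping through WT 5 and WT 6. Its log2 change was 0.80 ± 0.24 (adjusted p = 0.024), and it lost the call when WT 1, 2 or 3 or LCD KO 3 or 6 was left out (0.68 to 0.79, adjusted p 0.050 to 0.069).

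In the recombination group 1 gene rose and 1 fell. Tex11, an X-linked crossover factor, had 23.3, 42.5 and 62.1 CPM as the lowest, median and highest in WT and 28.4, 76.1 and 82.8 CPM in LCD KO. Pooled, the ranges overlapped, but LCD KO was above WT within each batch, and the log2 change was 0.64 ± 0.16 (adjusted p = 0.0077). Tex15, a large germ cell protein needed for meiotic repair and for transposon silencing, went the other way, with 15.7, 58.1 and 74.9 CPM in WT and 9.35, 31.9 and 39.3 CPM in LCD KO. Within each batch every LCD KO library was below every WT library: batch 1 had a mean of 35.02 CPM in LCD KO and 73.25 in WT, batch 2 had 11.2 and 15.7, and batch 3 had 32.9 and 44.1. The log2 change was -0.74 ± 0.19 (adjusted p = 0.0085). Dmc1, the meiotic recombinase, Msh4 and Mlh3, which act at crossovers, Meiob, a single-strand binding protein, and Rad51b, a homologous recombination repair gene, were not called. The direction of Rad51b differed by batch. Its means in LCD KO and WT were 126 and 59.1 CPM in batch 1, 63.5 and 47.6 in batch 2, and 114 and 168 in batch 3.

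Tex19.1 was the germ cell gene that rose in LCD KO. Its lowest, median and highest values were 78.2, 91.0 and 116 CPM in WT and 91.9, 117 and 170.0 CPM in LCD KO. Every batch had LCD KO above WT: the batch 1 means were 159.6 and 105.5 CPM, those of batch 2 were 95.2 and 78.2, and those of batch 3 were 116 and 84.7. This gave a log2 change of 0.48 ± 0.11 (adjusted p = 0.0033). Tex14, of the intercellular bridges between germ cells, was not called (0.03 ± 0.22), and neither were the testis isoforms Slc25a31, Rpl10l, Tuba3a, Tuba3b and Pdha2. Leaving out any 1 library ended none of the calls for Sycp3, Tex11, Tex15 and Tex19.1.

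Most of the LCD KO calls were kept in batch 1 alone but not without that batch. In batch 1 alone 11 genes were called, 6 of the 8 among them. The share of all genes called in that fit is not given here, so the 11 cannot be set beside it. Majin and Stag3 were lost there, and Hormad1, Rad51b, Rpl10l, Tuba3a and Tuba3b were added. Without batch 1, an alternative added after the data had been seen, Sycp3 remained called (1.08, adjusted p = 0.021), the other 7 did not, and Dmc1 was added, for 2 genes in all, while over all genes 363 were called in place of 2162. Without a batch term Sycp3 alone remained. The 6 theca or stroma markers were low, with sums of 1.04 to 2.51 CPM in WT and 2.70 to 5.99 CPM in LCD KO. Dcn had 208 counts over the 24 libraries and the others 3 to 29 each. Only Dcn was tested, and it was called higher (log2 2.08). Of the 11 granulosa markers 3 were tested, and Hsd3b1 was called higher, with LCD KO 2 reaching a sum of 324 CPM. Of the 12 oocyte markers 5 were called lower (Zp1, Zp2, Figla, Mos and Oosp1), 41.7% beside 9.44% of all genes, with a median log2 change of -0.38. Ptx3 and the globins were at 0 in all libraries. The part of these shifts in the germline gene results was not tested.

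**Figure D3:**
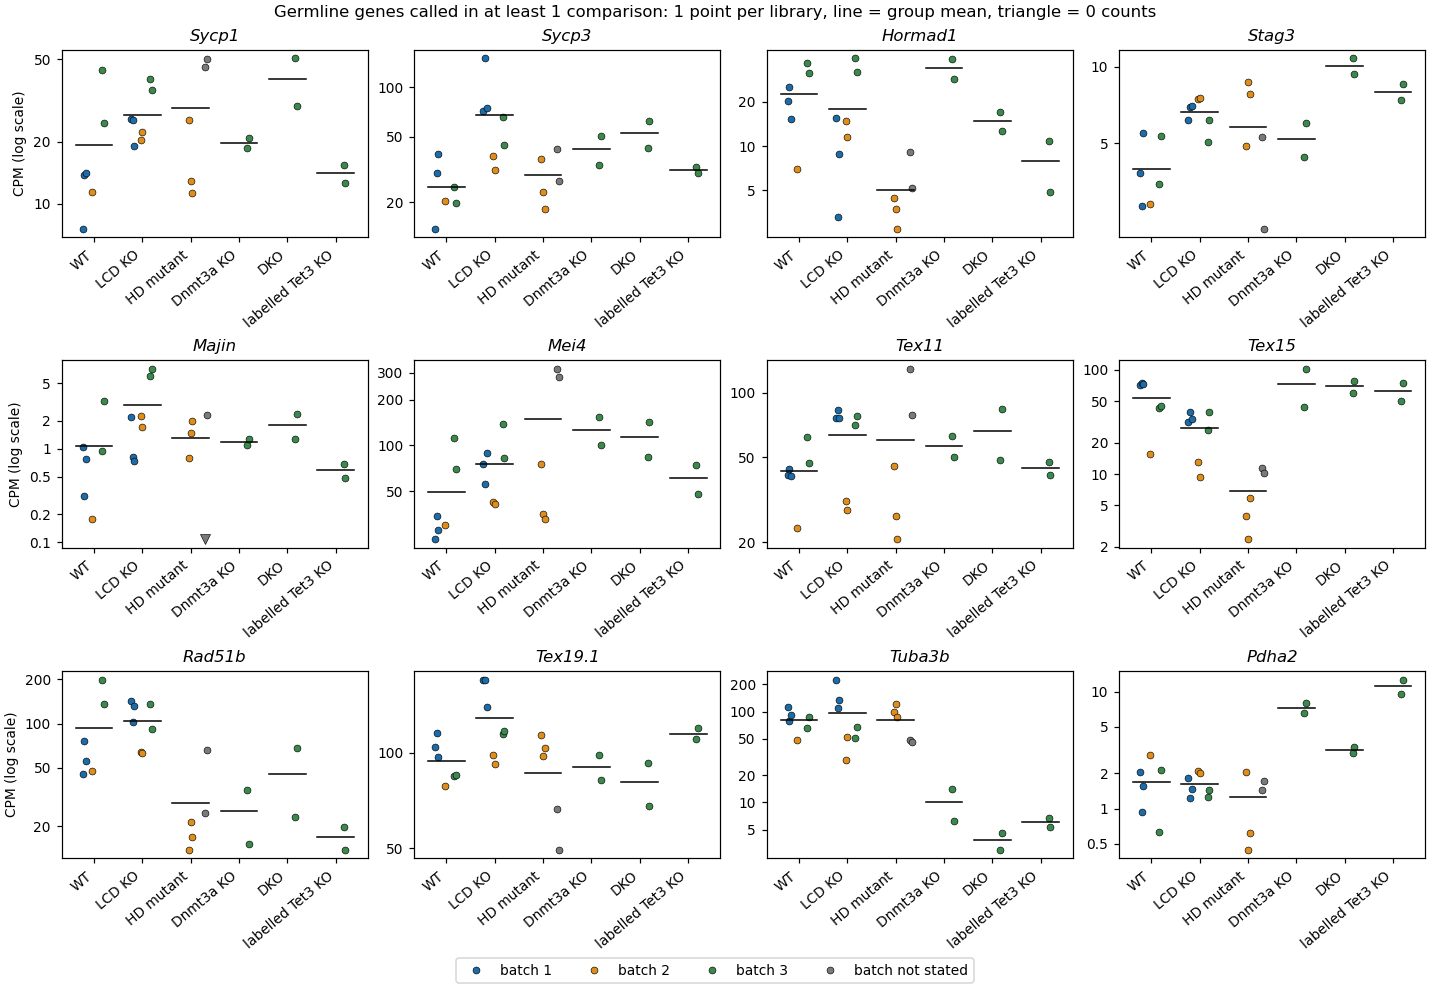
CPM on logarithmic axes for the 12 genes called in at least 1 comparison, with 1 point per library coloured by batch, a line at each group mean and a triangle for 0 counts. Tuba3b is lower in all Dnmt3a KO, DKO and labelled Tet3 KO libraries than in any WT library, Pdha2 is higher in them, and the HD mutant has the lowest mean of Tex15.

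In the HD mutant, 2 genes were higher than in WT (Tex19.1 and Tuba3b), 2 were lower (Tex15 and Hormad1) and 23 were not called. The 4 called genes are 14.8% of the 27, beside 7.83% of all genes tested (4.08% higher, 3.75% lower). Tex15 stood at 3.93, 2.37 and 5.94 CPM in HD mutant 1 to 3 and at 11.5 and 10.3 CPM in HD mutant 4 and 5. All 5 libraries lay below the lowest WT library, WT 4 at 15.7 CPM, and the last 2 took no part in the test. After batch adjustment the log2 change was -2.09 ± 0.34 (adjusted p = 0.00032), 4.26-fold lower, and it held without any 1 library (-2.49 to -1.82). WT 4 is the only WT library of batch 2, which holds all the tested HD mutant libraries. Without WT 4 the adjustment for that batch rests on LCD KO 4 and LCD KO 5 alone. Theca or stroma markers summed to 2.30 to 5.66 CPM in the HD mutant against 1.04 to 2.51 CPM in WT. Dcn, the only 1 of them tested, was not called (log2 1.79). Of the 12 oocyte markers 2 were called lower, 16.7% beside 3.75% of all genes. The part of these markers in these results was not tested.

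Hormad1 fell as well. The HD mutant libraries had 4.40, 3.70 and 2.72 CPM in batch 2 and 9.14 and 5.16 CPM where no batch was stated, while the lowest, median and highest in WT were 6.98, 22.9 and 37.0 CPM. The only overlap was HD mutant 4, which lay above WT 4. The log2 change was -1.86 ± 0.48 (adjusted p = 0.021), and without HD mutant 3 it was -1.68 (adjusted p = 0.052). In batch 2 alone the log2 change was -1.90 for Tex15 and -0.93 for Hormad1, from 1 WT library, too few to judge a call.

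The 2 rises in the HD mutant were less firm. Tuba3b had 99.1, 121 and 87.1 CPM in HD mutant 1 to 3, above the 48.1 CPM of WT 4, but 48.6 and 46.5 CPM in HD mutant 4 and 5, and the WT libraries of the other batches had 65.3 to 113 CPM. The batch-adjusted log2 change was 1.36 ± 0.34 (adjusted p = 0.016), without HD mutant 1 it was 1.39 (adjusted p = 0.052), and without a batch term it was 0.01. Tex19.1 had 114, 97.9 and 104 CPM in HD mutant 1 to 3 and 66.4 and 49.4 CPM in HD mutant 4 and 5, which lie below all WT libraries. Its log2 change was 0.56 ± 0.17 (adjusted p = 0.046), and the call was lost on leaving out any of WT 1, 2, 3, 4 or 6 or HD mutant 1, 2 or 3 (0.50 to 0.68, adjusted p 0.051 to 0.14). Its direction turned without a batch term, to -0.12, with HD mutant 4 and 5 included.

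Set directly against LCD KO, the HD mutant was lower for 2 of the 27 genes, Tex15 and Rad51b (7.41%, beside 2.08% of all genes, 1.17% higher and 0.907% lower), and higher for none. Tex15 differed by -1.35 ± 0.32 (adjusted p = 0.020), and in batch 2 all 3 HD mutant libraries lay below both LCD KO libraries. It lost the call without LCD KO 4 or 5 or HD mutant 1 or 2 (-1.44 to -1.08, adjusted p 0.055 to 0.16). Rad51b had 13.8, 21.4 and 17.0 CPM in HD mutant 1 to 3, 24.5 and 66.6 CPM in HD mutant 4 and 5, and 63.3, 102 and 144 CPM as the lowest, median and highest in LCD KO. Only HD mutant 5 reached into the LCD KO range. The log2 difference was -1.86 ± 0.43 (adjusted p = 0.027), and leaving out LCD KO 4 or 5 or HD mutant 1, 2 or 3 ended the call (-2.04 to -1.73, adjusted p 0.064 to 0.20). None of the 27 genes was called without LCD KO 4 or 5 or HD mutant 1 or 2, and 1 without HD mutant 3. For Hormad1 (-1.59 ± 0.43, adjusted p = 0.054) and Tuba3b (1.18 ± 0.32, adjusted p = 0.056) the difference between HD mutant and LCD KO did not pass.

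Loss of Dnmt3a changed 3 of the 27 genes against WT, Pdha2 upward and Tuba3b and Rad51b downward, or 11.1% beside 0.755% of all genes tested (0.432% higher, 0.322% lower). Tuba3b had 13.9 and 6.21 CPM in the 2 Dnmt3a KO libraries, and 48.1, 82.9 and 113 CPM as the lowest, median and highest in WT. The groups did not overlap, and the log2 change was -2.74 ± 0.42 (adjusted p = 0.00087). Without Dnmt3a KO 2 it was -2.20 (adjusted p = 0.10), and none of the 27 genes was called, while leaving out WT 5 left 1.

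Pdha2 had 6.61 and 7.92 CPM in Dnmt3a KO and 0.627, 1.81 and 2.86 CPM in WT, again without overlap. Its log2 change was 2.28 ± 0.51 (adjusted p = 0.023), and the call was lost without WT 5 (1.96, adjusted p = 0.082), Dnmt3a KO 1 (2.40, adjusted p = 0.051) or Dnmt3a KO 2 (2.14, adjusted p = 0.22). Rad51b had 35.6 and 15.2 CPM in Dnmt3a KO and 45.2, 66.1 and 200 CPM in WT. Its log2 change was -2.35 ± 0.51 (adjusted p = 0.031), lost without WT 5 (-1.96, adjusted p = 0.056), WT 6 (-2.30, adjusted p = 0.077) or Dnmt3a KO 2 (-1.83, adjusted p = 0.30). WT 5 and WT 6, the WT libraries of the same batch, are the highest for Rad51b, at 200 and 137 CPM.

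The libraries labelled Tet3 KO, in which Dnmt3a was low, changed for 4 of the 27 genes, Pdha2 upward and Tuba3b, Rad51b and Hormad1 downward, or 14.8% beside 1.37% of all genes tested (0.551% higher, 0.822% lower). Tuba3b had 6.69 and 5.37 CPM there (-3.41 ± 0.44, adjusted p = 5.1e-05), and Rad51b 19.8 and 13.9 CPM (-2.90 ± 0.52, adjusted p = 0.0051). Pdha2 had 9.45 and 12.7 CPM, a log2 change of 2.88 ± 0.50 (adjusted p = 0.00096). All 3 genes lay outside the WT range in both libraries. Hormad1, at 10.8 and 4.88 CPM, fell too (-2.29 ± 0.49, adjusted p = 0.013), although WT 4, at 6.98 CPM in batch 2, lies between the pair. Leaving out library 2 of this group ended the calls of Hormad1 (-1.83, adjusted p = 0.28) and Rad51b (-2.67, adjusted p = 0.15) and left 2 genes called, and leaving out library 1 ended that of Rad51b (-3.18, adjusted p = 0.083), while Tuba3b and Pdha2 were called in every such case. Spermatid markers, 8 genes, summed to 9.69 to 10.5 CPM here, 7.92 to 12.8 CPM in Dnmt3a KO and 4.71 to 15.7 CPM in WT, and Tnp1 was at 0 in all libraries. Of the 2 spermatid markers tested, Prm2 was called higher in the labelled Tet3 KO libraries (1.57 ± 0.40, adjusted p = 0.043), and of the 12 oocyte markers Ooep was called lower (-1.15 ± 0.23, adjusted p = 0.0067). Their part in the Pdha2 result was not tested.

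With both the Dnmt3a and the Tet3 LCD alleles floxed, DKO differed from WT for 2 of the 27 genes, Stag3 upward and Tuba3b downward (7.41%, beside 3.79% of all genes, 2.27% higher and 1.52% lower). Tuba3b had 3.01 and 4.67 CPM, the lowest 2 of the 24 libraries, and its log2 change was -4.09 ± 0.48 (adjusted p = 2.5e-05), 17.0-fold lower. Stag3 had 10.8 and 9.34 CPM, above every other library, with a log2 change of 1.41 ± 0.36 (adjusted p = 0.023). The Stag3 call was lost without WT 5 (1.34, adjusted p = 0.051), DKO 1 (1.29, adjusted p = 0.18) or DKO 2 (1.51, adjusted p = 0.077). The count was 5 genes without WT 4 and 1 without WT 5 or DKO 1. Sycp3, at 42.7 and 62.7 CPM, was above all WT libraries but did not pass (1.31 ± 0.38, adjusted p = 0.056). Pdha2, at 3.01 and 3.34 CPM, was not called (1.08 ± 0.57, adjusted p = 0.33).

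Against Dnmt3a KO, which shares the Dnmt3a deletion, DKO changed none of the 27 genes in edgeR (beside 1.99% of all genes, 1.07% higher and 0.924% lower). At an unadjusted p below 0.05 there were 10, beside 1809 of all 11794 genes, and DESeq2 called 2, Smc1b and Tuba3a. Without Dnmt3a KO 1 edgeR called 1. Tuba3b differed by -1.35 ± 0.56 (adjusted p = 0.24). Pdha2 differed by -1.20 ± 0.53 (adjusted p = 0.27). Tuba3a had 758 and 1291 CPM in DKO and 597 and 344 CPM in Dnmt3a KO (1.13 ± 0.34, adjusted p = 0.084). Smc1b had 8.79 and 10.01 CPM in DKO and 15.8 and 32.5 CPM in Dnmt3a KO (-1.39 ± 0.40, adjusted p = 0.067).

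Against LCD KO, which shares the LCD deletion, DKO changed 1 gene, Tuba3b, downward (3.70%, beside 0.314% of all genes, 0.237% higher and 0.0763% lower). The log2 difference was -4.27 ± 0.49 (adjusted p = 3.0e-05), and the lowest LCD KO library, LCD KO 4 at 29.0 CPM, lay well above both DKO libraries. Tex15 was higher in DKO, at 60.3 and 78.7 CPM, than in all LCD KO libraries, but did not pass (1.23 ± 0.29, adjusted p = 0.068).

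Tuba3b and Tuba3a needed a separate look, because their longest reading frames, 1353 bases each, are identical at 1312 positions (97%), so reads could be assigned to either. Of the 1626 windows of 150 bases along the Tuba3b transcript, 36 are identical in Tuba3a. Tuba3b made up 4.26 to 8.31% of the counts of both genes in the 6 WT libraries and 2.47 to 7.19% in LCD KO. The share was 2.28% and 1.77% in Dnmt3a KO, with Wilson 95% intervals of 1.67 to 3.12% and 1.24 to 2.54%, and 0.396% (0.227 to 0.691%) and 0.360% (0.215 to 0.604%) in DKO. In the libraries labelled Tet3 KO it was 1.20% (0.840 to 1.72%) and 1.12% (0.739 to 1.69%). All 6 of these libraries lay below every WT library, and the intervals cover counting error only. Tuba3a itself was not called in any comparison. Within batch 3 its mean was 1030 CPM in WT, 470 ± 179 in Dnmt3a KO (SD, n = 2), 512 ± 51.7 in the libraries labelled Tet3 KO (n = 2) and 1025 ± 377 in DKO (n = 2), and the WT mean of batch 1 was 1823 CPM. HD mutant 1 to 3 had shares of 7.10, 13.4 and 9.07%, and HD mutant 4 and 5 had 4.08 and 4.71%, within or just under the WT range.

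**Figure D4:**
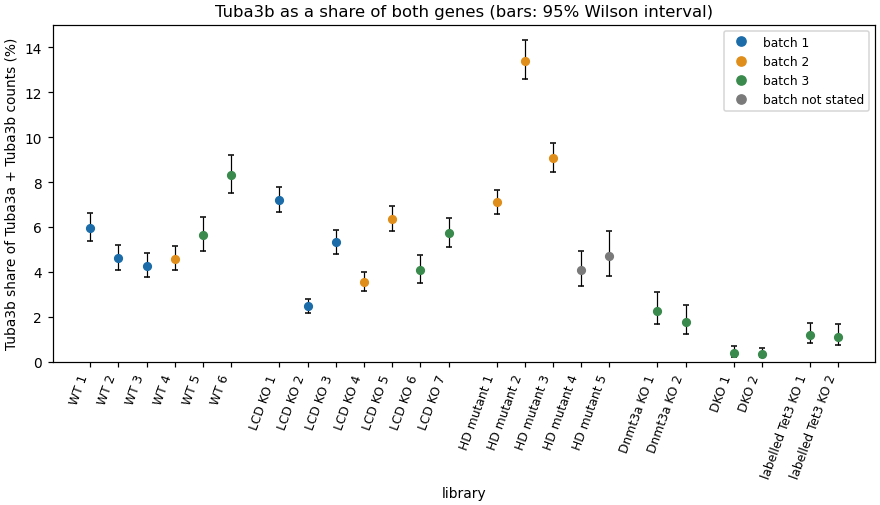
Tuba3b counts as a percentage of Tuba3a plus Tuba3b counts in each of the 24 distinct libraries, coloured by batch, with bars for the Wilson 95% interval. The Dnmt3a KO, DKO and labelled Tet3 KO libraries lie between 0.360 and 2.28%, and all WT libraries between 4.26 and 8.31%.

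The 15 tested genes that were called nowhere included the most abundant ones. Tuba3a, the most abundant, differed from WT by -1.04 ± 0.31 in Dnmt3a KO (adjusted p = 0.14) and, for the labelled Tet3 KO libraries, by -0.92 ± 0.31 (adjusted p = 0.20). Slc25a31 differed from WT by -0.15 to 0.07 on the log2 scale in the 5 comparisons with WT, and Syce2 by -0.18 to 0.13. Terb1 differed by -0.39 to 0.13 and Msh4 by -0.29 to 0.03. A missed threshold does not show that these levels are equal. Syce1, another central element protein singled out after its values were seen, differed by 2.76 ± 0.86 in the libraries labelled Tet3 KO and 2.30 ± 0.91 in Dnmt3a KO, from means of 3.99 and 2.94 CPM against 0.744 CPM in WT, and neither passed (adjusted p = 0.13 and 0.28). Rpl10l, the testis copy of a ribosomal protein gene, had 13.8 ± 4.95 CPM in DKO and 5.60 ± 3.996 in WT (SD, n = 2 and 6), and did not pass (1.13 ± 0.39, adjusted p = 0.11).

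Other meiotic prophase genes were read from a separate list of 45, of which 31 were tested. In LCD KO 6 were higher and 4 lower than in WT, 32.3% of those tested beside 18.3% of all genes, with a median log2 change of 0.00. Those with the largest changes were all higher: Rad21l, a meiotic kleisin of cohesin, by 0.83 ± 0.28 (adjusted p = 0.041), Cntd1, a cyclin-like crossover factor, by 0.75 ± 0.26 (adjusted p = 0.043), and Xrcc3, a DNA repair gene, by 0.68 ± 0.15 (adjusted p = 0.0018). In the HD mutant Rad21l (1.35 ± 0.42) and Smc1a (0.73 ± 0.19) were higher, in DKO Rad21l (1.45 ± 0.41) and Cdk2 (0.82 ± 0.20), and none was lower. Each is 6.45% of the 31, beside 7.83% of all genes in the HD mutant and 3.79% in DKO. For Rad21l the WT mean was 3.21 ± 1.36 CPM (n = 6, SD), that of LCD KO 5.46 ± 1.83 (n = 7) and that of DKO 10.5 ± 0.742 (n = 2). Neither for Dnmt3a KO nor for the labelled Tet3 KO libraries did edgeR call any of the 31 (beside 0.755% and 1.37% of all genes). At an unadjusted p below 0.05 there were 6 and 3, beside 1531 and 1092 of all 11794 genes, and DESeq2 called 1 and 2.

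Of 19 tested genes in a list of other germline genes, Mael, a piRNA pathway factor, was called in 6 of the 8 comparisons. The list as a whole was called no more often than all genes in LCD KO (10.5% beside 18.3%) and the HD mutant (5.26% beside 7.83%). Mael alone made up 5.26% of the list in 4 further comparisons. The all-gene shares there were 0.755% in Dnmt3a KO, 1.37% in the labelled Tet3 KO libraries, 1.99% in DKO against Dnmt3a KO and 2.08% in HD mutant against LCD KO. No gene of the list was called in DKO against WT or against LCD KO (beside 3.79% and 0.314%). Mael was higher in LCD KO (0.45 ± 0.12, adjusted p = 0.0085) and the HD mutant (1.23 ± 0.19, adjusted p = 0.00011), and lower with Dnmt3a KO (-0.87 ± 0.19, adjusted p = 0.023) and for the labelled Tet3 KO libraries (-1.22 ± 0.20, adjusted p = 0.00047). Its mean was 144 ± 29.1 CPM in WT, 224 ± 14.4 in the HD mutant (n = 5) and 85.5 ± 16.7 in Dnmt3a KO. DKO was higher than Dnmt3a KO for this gene (0.81 ± 0.21, adjusted p = 0.039). Dazl, an RNA-binding protein of germ cells, was lower with LCD KO, at a log2 change of -0.53 ± 0.12 (adjusted p = 0.0029).

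Among 18 tested regulators of germline gene repression, 16.7% were called in LCD KO, beside 18.3% of all genes. The share was 22.2% in the HD mutant, beside 7.83%, and 16.7% in DKO, beside 3.79%. These shares include the targeted genes, so they show no excess among the other regulators. In DKO the 3 called were the targeted Tet3 and Dnmt3a, and E2f6, and Tet3 was 1 of the 3 in LCD KO and of the 4 in the HD mutant. Tet3 was lower in LCD KO (-1.78 ± 0.21, adjusted p = 6.3e-06), the HD mutant (-1.86 ± 0.33, adjusted p = 0.0015) and DKO (-1.73 ± 0.36, adjusted p = 0.0075). Dnmt3a was lower in Dnmt3a KO (-1.53 ± 0.20, adjusted p = 6.6e-05) and DKO (-1.81 ± 0.20, adjusted p = 2.8e-06). The maintenance methyltransferase gene Dnmt1 and the helicase gene Hells were lower in LCD KO, with log2 changes of -0.59 ± 0.18 and -0.54 ± 0.16. In the HD mutant Setdb1, a histone methyltransferase gene, was lower (-0.71 ± 0.20, adjusted p = 0.025) and Tet1 was higher after batch adjustment (1.47 ± 0.44, adjusted p = 0.037), while its pooled means were 4.14 ± 1.75 CPM (SD, n = 5) in the HD mutant and 4.10 ± 2.20 CPM in WT (n = 6). E2f6 was called lower in DKO, where it had 0 counts in both libraries, but it had only 1 to 27 counts in the WT libraries, so no fold is given.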

How the data were processed

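Polyadenylated RNA from pools of 10 GV oocytes was counted per gene. The deposited table holds raw counts; per the submitters' processing notes, Trim Galore 0.5.0, HISAT2 2.1.0, featureCounts 1.6.4 and mm9 were used, and the strand setting is not given in the sources used here. From the 24542 features, 92 spike-in features (1 count in all) were left out. Of 26 libraries 24 were distinct. CPM were computed with TMM factors. edgeR 4.0.16 (R 4.3.3, limma 3.58.1) was run on 22 libraries with a stated batch, with terms for group and batch, after its filter on low counts (11794 genes, 14 residual degrees of freedom), and standard errors are the log2 fold change divided by the square root of F. Adjusted p-values are Benjamini-Hochberg values of its quasi-likelihood test over all genes tested. The procedure was tested on simulated data. DESeq2 1.42.0, no filter, no batch term, a replicate block, other scaling, single batches and leaving out each library were alternatives.

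All 35 genes were accounted for. Genes called in at least 1 of 8 comparisons were described by library, and of the rest up to 3 per role with the highest CPM. From the other lists at most the 3 largest called changes per comparison were named. The genes and lists were chosen with earlier results of these data known. Promoters are RefSeq's (GRCm38.p6), exon lengths and overlaps GENCODE M21's, and the files' mm9 coordinates were not used. Groups were taken from the labels. Depth ran from 1838824 to 7833087 counts per library.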

Additional observations from a re-analysis of the deposited data

Results flagged for a closer look

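Of 36 sets of libraries examined (12 genes in the 3 groups of more than 3 libraries), 3 held 1 library far from its group, and chance gives about 1 in 20. Sycp3 in LCD KO 2 stood at 149.5 CPM, and the next LCD KO library at 74.7 CPM. LCD KO 2 is also the library with the highest granulosa marker sum, 324 CPM, and the part of this in its Sycp3 value was not tested. Leaving out LCD KO 2 did not end the Sycp3 call. Majin in WT 6 stood at 3.21 CPM, and the next WT library at 1.04 CPM. Rad51b in HD mutant 5, a library with no stated batch and in no test, stood at 66.6 CPM, and the next HD mutant library at 24.5 CPM.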

How the results depend on the processing

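Tuba3b in DKO and in the libraries labelled Tet3 KO against WT and in DKO against LCD KO, and Pdha2 in the libraries labelled Tet3 KO, were called under every alternative run. Without a batch term, with HD mutant 4 and 5 added, the genes called of those tested were 1 in LCD KO, 0 in Dnmt3a KO, 1 in DKO and 2 in the libraries labelled Tet3 KO against WT. DESeq2 called 5 in DKO against WT, 2 in DKO against Dnmt3a KO, 3 in DKO against LCD KO and 4 in HD mutant against LCD KO. Without the filter the counts were 6, 6 and 7 in Dnmt3a KO, DKO and the libraries labelled Tet3 KO, 5 in DKO against Dnmt3a KO, 3 in DKO against LCD KO and 4 in HD mutant against LCD KO. Batch 1 alone gave 11 in LCD KO, with no share over all genes given. Batch 2 alone, with 1 WT library, had too few to judge a call. Batch 3 alone gave 2 in LCD KO, 1 in Dnmt3a KO and 1 in DKO against Dnmt3a KO. Alternatives chosen after seeing the data gave 1 in DKO against Dnmt3a KO with library totals in place of TMM, and, without batch 1, 2 in LCD KO, 1 in DKO and 4 in HD mutant against LCD KO. Leaving out 1 library gave 5 to 8 in LCD KO, 3 to 5 in the HD mutant, 0 to 3 in Dnmt3a KO, 1 to 5 in DKO, 2 to 4 in the libraries labelled Tet3 KO, 0 to 1 in DKO against Dnmt3a KO, 1 to 1 in DKO against LCD KO and 0 to 3 in HD mutant against LCD KO; a lone library of a pair was assumed to vary like the other groups. Tex19.1 in the HD mutant turned to -0.12 without a batch term. The cause of these shifts was not tested.

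Whether the replicate numbers pair the libraries could not be decided. The deviations of same-numbered libraries had correlations of -0.017, -0.021 and -0.049 in batch 1 and -0.320 to 0.272 in batch 3. In batch 3 each group has 2 libraries, whose deviations from their mean mirror each other, so those correlations cannot settle it. A fit with the replicate block in place of batch called 3 genes in LCD KO, 7 in the HD mutant, 6 in Dnmt3a KO, 7 in DKO, 6 in the libraries labelled Tet3 KO, 0 in DKO against Dnmt3a KO, 6 in DKO against LCD KO and 11 in HD mutant against LCD KO, and turned Tex19.1 to -0.081 and Tuba3b to -0.21 in the HD mutant.

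Over all genes, 357 were called in LCD KO without a batch term, 818 with the block, 12 and 88 in batches 2 and 3 alone and 363 without batch 1, in place of 2162. For the HD mutant these were 405, 3477, 40 (batch 2) and 300 in place of 923. Dnmt3a KO had 15 without a batch term, 185 by DESeq2, 311 without the filter, 1437 with the block and 54 in batch 3 alone in place of 89, and DKO had 167, 672 (no filter), 1961 (block), 179 (batch 3) and 236 (without batch 1) in place of 447. The libraries labelled Tet3 KO had 47, 284 (no filter) and 1163 (block) in place of 162. DKO against Dnmt3a KO had 4, 382 (DESeq2), 449 (no filter) and 24 (block) in place of 235, DKO against LCD KO had 5, 72, 122 and 1588 in place of 37, and HD mutant against LCD KO had 99, 410 (no filter), 3048 (block) and 102 (batch 2) in place of 245. Over the 24 libraries Majin had 177 counts, Pdha2 295 and Stag3 656.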
